A study of Homo sapiens with 15 samples.

Results

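The comparison set IMR90 cells that carried RAS, an siRNA against METTL14 and lentiviral METTL14 with the R298P substitution (3 libraries) against cells with the same RAS and siRNA and a lentiviral vector (3 libraries). These 6 libraries were defined by their labels and are part of a series of 15. The comparison and the gene lists were chosen with earlier results of these data known. IMR90 is an established line of human fetal lung fibroblasts. The other 9 libraries, 3 a group, were control cells (empty retrovirus and a non-targeting siRNA), RAS cells with the non-targeting siRNA (called siControl RAS), and RAS cells with the METTL14 siRNA and lentiviral wild-type METTL14. Retrovirus came first, the first siRNA followed on day 4, the second siRNA and the lentivirus on the day after, and RNA was taken 48 hours later. The vector and R298P cells thus share the RAS retrovirus, the knockdown and a lentivirus, and differ by the coding insert. The labels' genotype field calls the cells knockout and knock-in, while the protocols describe siRNA and lentivirus. The sources used here do not give the form of RAS, the promoter of the lentiviral insert, whether the insert escapes the siRNA, or whether the 3 libraries of a group are separate cultures. The p-values therefore measure the spread of these libraries, which may be technical.

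METTL14 binds METTL3 in the enzyme complex that methylates adenosine in RNA (N6-methyladenosine, m6A). METTL3 holds the catalytic site, METTL14 helps to hold the RNA, and WTAP keeps the pair in nuclear speckles. R298P is a substitution known from endometrial tumours that weakens methylation by the complex. RAS drives fibroblasts into senescence, in which cells stop dividing, secrete proteases, cytokines and growth factors (the SASP, or senescence-associated secretory phenotype) and often show interferon-stimulated genes. The title of the series speaks of METTL3 and METTL14 acting on this secretion apart from m6A, and the comparison asks what a form with weakened methylation does to gene expression when it is supplied to knockdown cells.

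QuantSeq libraries, which count tags near the 3′ end of transcripts, held 4917661 to 6441349 counts in the vector group and 4953042 to 6271500 in the R298P group, so that 1 count stood for 0.154 to 0.203 CPM, the library's counts scaled to a common total. Levels below are CPM after TMM normalisation, changes are log2 values fitted by edgeR for R298P against vector, and the word called marks a gene whose p, adjusted by Benjamini-Hochberg over 13516 genes, lay under 0.05. The median change over all genes tested was 0.0037. In a principal component analysis of the 6 libraries, vector replicate 1 stood apart on the first component (27.3% of the variance) at -57.9, with the other libraries at 5.86 to 22.6. On the second component (22.4%) every vector library scored below every R298P library, with the nearest at 3.23 and 5.17. Fibroblast markers were present in every library, with COL1A1 at 8704, 8692 and 8247 CPM in the vector libraries. TWIST2, on the same list, had only 2 to 11 counts in the 6 libraries and was not tested. The epithelial genes CDH1, KRT5, KRT14, ESRP1, GRHL2 and SFTPC and the endothelial genes CDH5, ERG and EMCN had 0 counts in all 15 libraries, and the leukocyte gene PTPRC had at most 2. Other epithelial members were present in the 6 libraries, with KRT18 at 170 to 291, KRT19 at 98 to 169 and KRT8 at 45 to 105 counts. So were TEK and ROBO4 of the endothelial list, at 164 to 244 and 27 to 57, and leukocyte CD68, at 35 to 84. No marker of an epithelial, endothelial or leukocyte list was called (0 of 8, 0 of 3 and 0 of 1 tested in edgeR, 2, 0 and 0 at an unadjusted p under 0.05, and 0 in DESeq2 and limma-voom).

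METTL14 (ENSG00000145388) was the gene that differed most among the called. It stood at 9.35, 4.94 and 3.94 CPM in the vector libraries, at 892, 907 and 1038 CPM with R298P, at 508, 564 and 564 CPM with the wild-type form, and at 26.2, 19.3 and 20.5 CPM in siControl RAS cells. R298P libraries all lay far above every other library, and vector libraries lay below every siControl RAS library. The change was 7.33 (95% interval 6.94 to 7.71), about 160.3-fold. Tags near the 3′ end do not show the R298P codon, so the counts check that METTL14 was supplied but not which form. The R298P form also exceeded the wild-type form, by 0.79 (0.54 to 1.05, edgeR adjusted p = 0.0322), a call that is lost when any 1 library of these groups is left out. Comparisons of the forms below are therefore between unequal amounts of METTL14 mRNA. The reference codon that the substitution changes is shown because it is the only designed difference between the forms. It lies in exon 10 of 11 of METTL14, at chr4:118705647-118705649 on the + strand (GRCh38, GENCODE 29), in a reading frame of 456 codons, with 30 bases of coding sequence on each side and that codon in capitals.
METTL14, R298P codon: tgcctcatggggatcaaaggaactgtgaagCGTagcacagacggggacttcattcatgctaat
CGT encodes arginine, and the construct's own sequence was not used here.

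WTAP (ENSG00000146457), the complex subunit that places METTL3 and METTL14 in nuclear speckles, fell with R298P. Its levels were 263, 262 and 265 CPM in vector and 186, 180.2 and 201 CPM in R298P libraries, and the groups did not overlap. The change was -0.48 (-0.64 to -0.32, edgeR adjusted p = 0.000228) and it was called in each of 6 fits that left out 1 library. With wild-type METTL14, WTAP stood at 263, 271 and 295 CPM, and R298P against wild type gave -0.55 (-0.71 to -0.39, edgeR adjusted p = 0.000549). R298P libraries thus lay below all vector and wild-type libraries, below all siControl RAS libraries (281, 241 and 246 CPM) and above all control libraries (149.7, 136 and 142 CPM).

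METTL3 did not differ detectably, at 15.8, 15.3 and 10.8 CPM in vector and 13.2, 11.8 and 12.2 CPM in R298P libraries (-0.17, interval -0.75 to 0.40), and at this depth a change within that interval cannot be seen. Among 27 tested genes that write, remove or read m6A, METTL14 not counted, 2 were lower and 0 higher, beside 0.555% and 0.54% of all 13516 genes tested. Higher members numbered 0 at an unadjusted p under 0.05, in DESeq2 and in limma-voom. Lower members numbered 4 at an unadjusted p under 0.05, beside 9.03% of all genes either way. Besides WTAP, the gene called lower was IGF2BP3, a reader that binds m6A-marked mRNA. It was at 152, 155 and 149 CPM in vector and 113, 130.5 and 106 CPM in R298P libraries (-0.38). Wild-type libraries overlapped those of R298P for IGF2BP3, at 108, 132 and 129 CPM. Its call was held in 2 of 6 fits without 1 library and was lost in a fit of the 6 libraries alone (edgeR adjusted p = 0.0767).

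**Figure D1:**
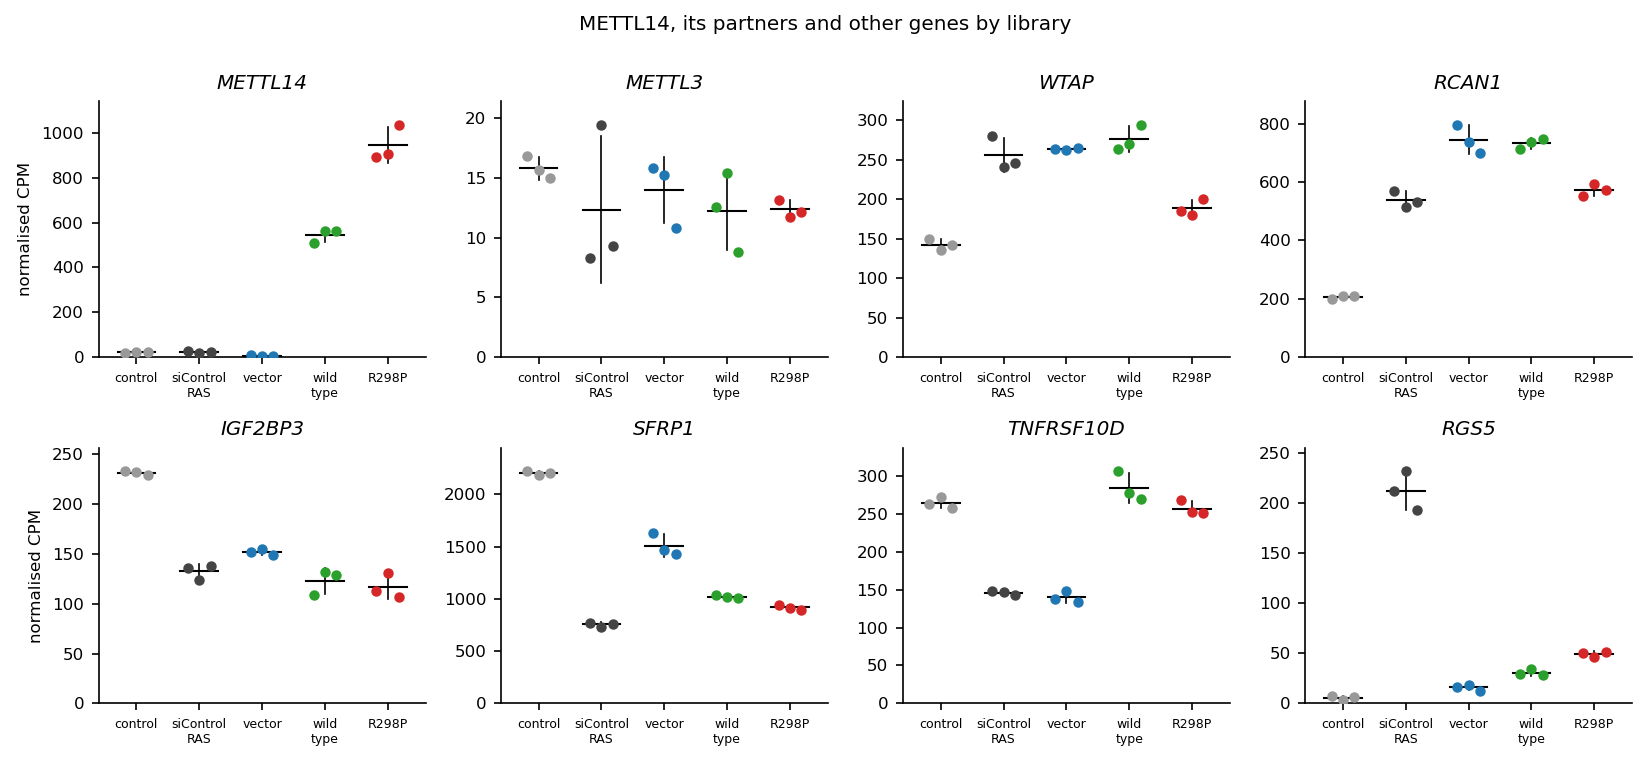
Normalised CPM by library for METTL14, METTL3, WTAP, RCAN1, IGF2BP3, SFRP1, TNFRSF10D and RGS5 in the 5 groups (points: 3 libraries a group; horizontal line: mean; vertical line: SD; each axis starts at 0). WTAP and RCAN1 lie lower with R298P than with vector or wild-type METTL14; METTL14 and RGS5 lie higher with R298P than with either.

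R298P changed 148 of 13516 genes (1.09%), 73 higher (0.54%) and 75 lower (0.555%). At an unadjusted p under 0.05 there were 1220 genes (9.03%). These shares are the background for each count of list members below. In 146 of the 148 the libraries of the groups were apart, beside 15% of all genes tested. The calls rest on the same values, so this separation is no added support. Most changes were small, with a median of 0.496 among the higher and -0.627 among the lower genes, and 9 higher and 16 lower genes passed a fold of 2. Calls followed the level of a gene: 3.93% of genes above 100 CPM were called, 0.846% between 10 and 100 CPM and 0.188% below 10 CPM, where the smallest called change was 1.63. Without vector replicate 1, the library that stood apart, 71 genes were higher and 69 lower, and 107 of the 148 were among them. The counts fell furthest without R298P replicate 3, to 47 higher and 43 lower, and without R298P replicate 2, to 47 and 46. The direction of all 148 was kept in each fit without 1 library, and 62 of them were called in all 6 such fits. For genes named below that lost their call in some of these 6 fits, the number of fits that kept it is given as held in so many of 6. By annotation 142 of the 148 code for proteins. Of the 148, 66 belong to at least 1 of the gene lists described below and 82 to none.

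**Figure D2:**
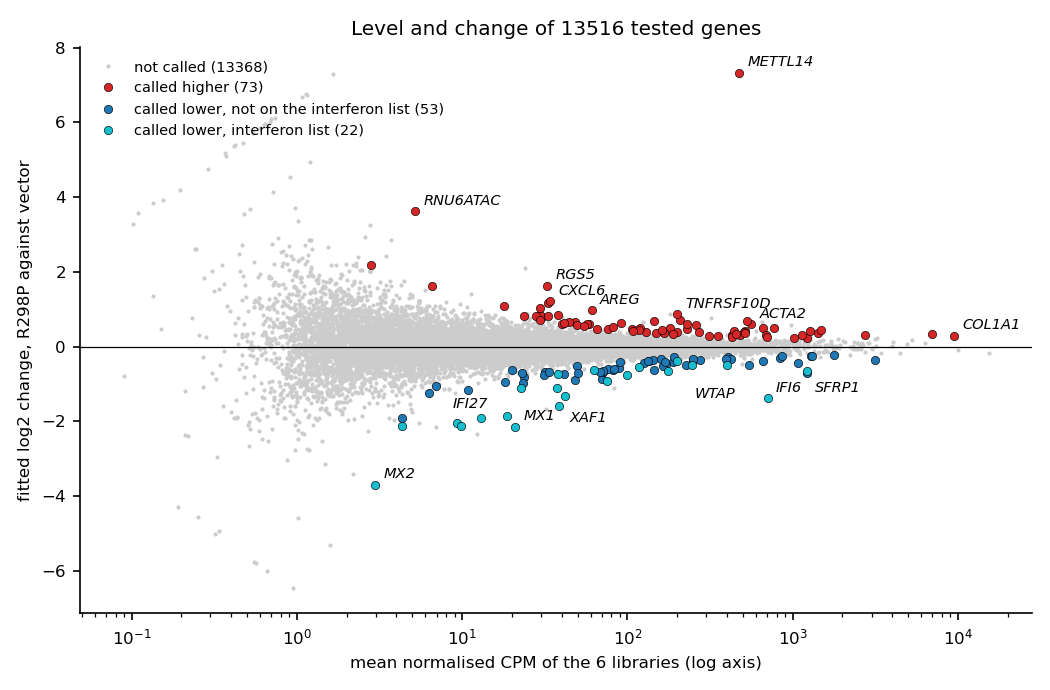
Each point is 1 of 13516 genes, by its mean normalised CPM in the 6 libraries (log axis) and its fitted log2 change, R298P against vector. Called genes are coloured (73 higher, 22 lower on the interferon list, 53 lower elsewhere); METTL14 lies at 7.33, and interferon-stimulated genes make up most of the largest decreases.

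Interferon-stimulated genes fell together. These genes are switched on when interferon binds its receptors, and code for sensors of viral RNA, antiviral effectors and parts of the signal itself. Of 45 list members 44 passed the filter on low counts, 22 were lower and 0 were higher (0 also at an unadjusted p under 0.05, in DESeq2 and in limma-voom), beside 0.555% lower among all genes tested. The median change was -0.83, with 43 members below 0 and 1 above, beside 6650 of all 13516 genes below 0. The groups did not overlap in 35 members, beside 15% of all genes tested. Over fits without 1 library 17 to 20 members were lower, 20 without vector replicate 1. The summed level of the list was 4947 to 5363 CPM in vector libraries and 2967 to 3251 CPM in R298P libraries. In bulk RNA, fewer cells that express these genes and less RNA per cell cannot be told apart.

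Many of the lower members are effectors that block viral replication. IFI6 (ENSG00000126709), an endoplasmic reticulum and mitochondrial protein that hinders viral replication, stood at 1014, 991 and 1048 CPM in vector and 361, 369 and 440.4 CPM in R298P libraries (-1.38, -1.52 to -1.25, edgeR adjusted p = 1.45e-16). Every R298P library lay far below the lowest vector library. MX1 (ENSG00000157601), a GTPase that traps viral nucleocapsids, went from 31.5, 35.8 and 34.8 to 5.88, 9.2 and 8.11 CPM (-2.14, -2.75 to -1.54). Its relative MX2 was at 5.69, 6.17 and 4.76 with vector and 0.159, 0.852 and 0.203 CPM with R298P (-3.69, -5.31 to -2.08, held in 4 of 6), a few counts in each R298P library, so that the size of its change is poorly set. OAS2 and OAS3 make the 2′-5′ oligoadenylates that activate RNase L. OAS2 stood at 21.7, 9.11 and 17.4 CPM in vector and 2.54, 5.28 and 3.24 CPM in R298P libraries (-2.11), and vector replicate 2 was the lowest of its group. OAS3 stood at 67.9, 55.9 and 56 with vector and 19.9, 27.4 and 23.9 CPM with R298P (-1.33, held in 3 of 6). IFIT1, which binds viral RNA that lacks the host cap mark, stood at 20.1, 25.9 and 15.6 with vector and 3.02, 5.11 and 8.52 CPM with R298P (-1.91, held in 3 of 6), and its neighbour IFIT3 at 33.5, 31 and 28.6 with vector and 10.7, 13.8 and 19.1 CPM with R298P (-1.10, held in 5 of 6). For each of these genes the groups were apart, with every R298P library under every vector library. The rule that picked the largest changes required this, so for genes named by it the separation is no added support.

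IFI27, a small membrane protein, was at 23.2, 31.8 and 32.3 CPM in vector and 6.2, 9.37 and 8.72 CPM in R298P libraries (-1.86, -2.25 to -1.47). XAF1, which opposes inhibitors of apoptosis, showed one of the tightest separations, at 57.7, 57.6 and 57.4 with vector and 20.5, 15.2 and 22.1 CPM with R298P (-1.58, -1.96 to -1.21). HERC6, a ubiquitin ligase, was at 17.1, 15.6 and 12.3 with vector and 3.82, 4.43 and 2.43 CPM with R298P (-2.05), and IFI44L at 5.49, 7.25 and 8.54 with vector and 2.39, 1.7 and 0.608 CPM with R298P (-2.13, held in 2 of 6). PARP9 and its partner DTX3L, a ubiquitin ligase, both fell: PARP9 was at 52.6, 52.3 and 49.1 with vector and 23.9, 23.2 and 24.5 CPM with R298P (-1.11). DTX3L, which is not on the list and was picked after its values were seen, was at 99, 86.1 and 88.8 with vector and 46.4, 50.3 and 53.1 CPM with R298P (-0.87). IFITM2 and IFITM3, which hold viruses in endosomes, fell by 0.50 and 0.65; the copies of this family are alike in sequence, so their counts may be shared.

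Of the sensors and signal genes, RIGI, a sensor of viral RNA, fell by 0.63 (held in 3 of 6) and EIF2AK2, the kinase PKR that stops translation on double-stranded RNA, by 0.48. The transcription factors STAT2 and IRF9, which act together in this response, were not called: STAT2 was at 68.9, 65.7 and 68.3 with vector and 56.9, 55 and 56 CPM with R298P (-0.27, with an interval from -0.54 to just under 0), and IRF9 at 25.8, 29.5 and 30.9 with vector and 20.2, 18.7 and 13.8 CPM with R298P (-0.70, -1.11 to -0.29), although their groups did not overlap. ISG15, a ubiquitin-like modifier, varied within the groups (110.1, 85.3 and 146 with vector and 42.3, 47.4 and 68.9 CPM with R298P) and was not called (-1.11, -1.91 to -0.32, edgeR adjusted p = 0.289). Of the 22 members that were not called, 21 had a fitted change below 0, from -3.03 to 0.07, and 11 of the 13 members under 10 CPM in both groups were among them. The remaining lower members, SAMD9, SAMD9L, PARP14, IFI16 and GBP1, fell by 0.38 to 0.91; SAMD9L and GBP1 were each held in 2 of 6.

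**Figure D3:**
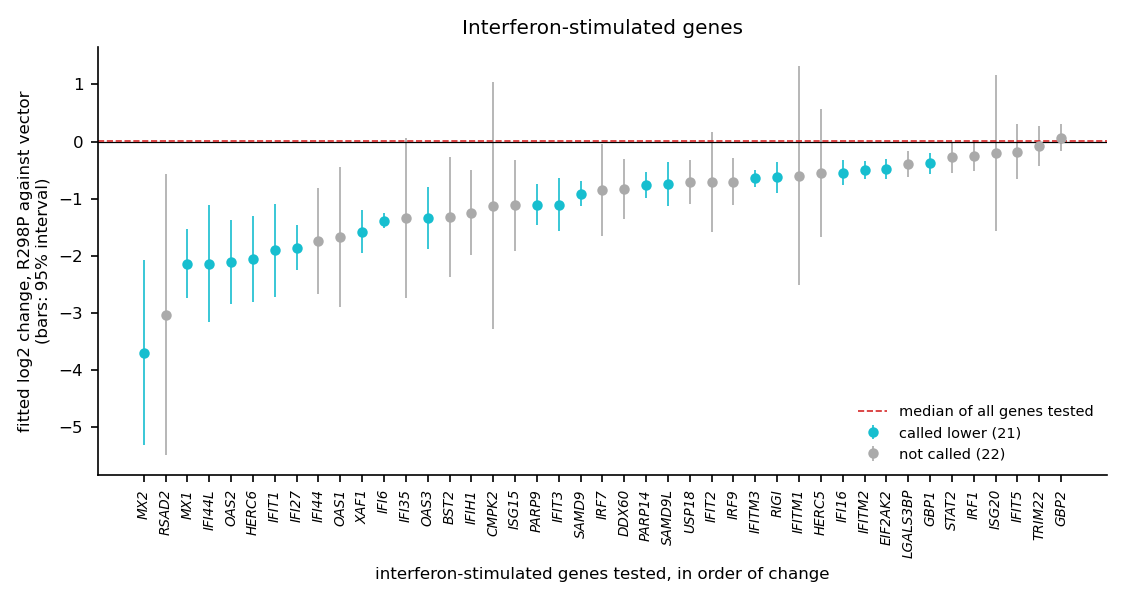
Fitted log2 change, R298P against vector, with its 95% interval, for 43 of the 44 interferon-stimulated genes tested, in order of change (21 called lower, 22 not called). Points lie below the median of all genes tested (dashed line) except GBP2, the 1 member fitted above 0.

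**Figure D4:**
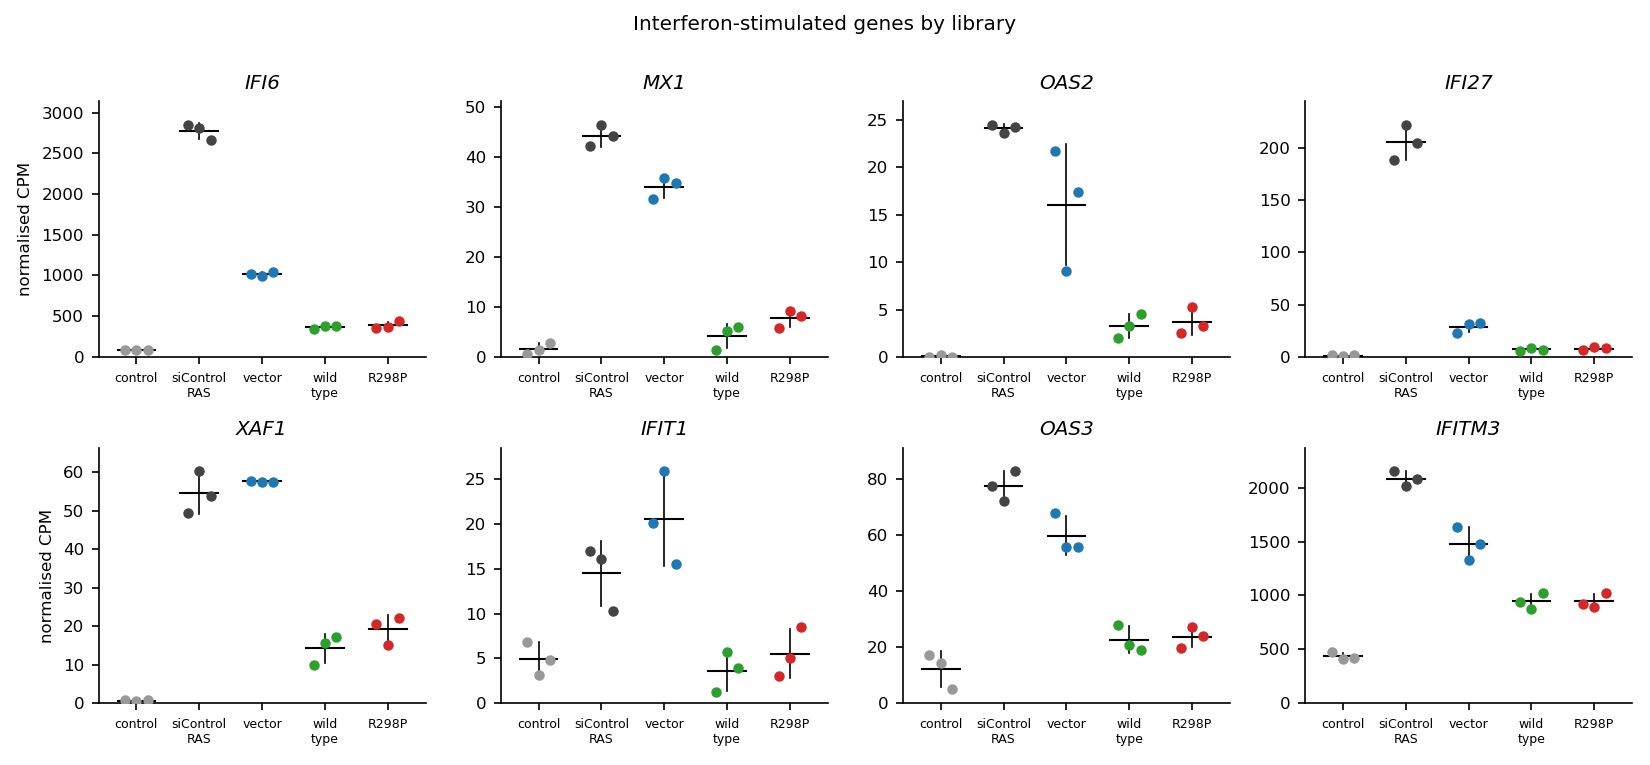
Normalised CPM by library for 8 interferon-stimulated genes in the 5 groups (points: 3 libraries a group; lines: mean and SD; axes start at 0). R298P and wild-type libraries lie below every vector library. For MX1 and XAF1 the mean is higher with R298P than with wild-type METTL14. IFI6, IFI27, MX1, OAS2, OAS3 and IFITM3 are highest in siControl RAS libraries, which overlap the vector libraries for XAF1 and IFIT1.

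Short promoter windows of lower members carry the letters of the interferon-stimulated response element, and they are shown because the members fell together. The letters searched were GAAA, any 2 bases and GAAA again, on both strands, from 250 bases before to 50 bases after the gene start, in RefSeq promoters of GRCh38.p14. Each line below gives 30 bases, 5′ to 3′ on the strand of the gene, with the match in capitals; TTTC at the edges marks a match on the opposite strand.
MX1 (chr21:41420559-41420588, + strand): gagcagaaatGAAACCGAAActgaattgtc
IFI6 (chr1:27672329-27672358, - strand): ggagagagggGAAAATGAAActctgcagag
IFI27 (chr14:94110631-94110660, + strand): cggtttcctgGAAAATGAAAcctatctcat
IFIT1 (chr10:89392497-89392526, + strand): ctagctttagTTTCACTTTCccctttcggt
IFIT3 (chr10:89327865-89327894, + strand): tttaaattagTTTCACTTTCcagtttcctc
OAS3 (chr12:112938452-112938481, + strand): agccgggcggGAAAACGAAAccagaaatcc
EIF2AK2 (chr2:37156967-37156996, - strand): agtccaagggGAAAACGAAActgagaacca
IFITM3 (chr11:320876-320905, - strand): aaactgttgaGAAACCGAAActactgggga
A match was found in 12 of 18 called list members that have a promoter in the table (66.7%), in 10 of 17 list members that were not called (58.8%) and in 4 of 39 lower genes outside the list (10.3%). Over all promoters in the table the share was 3.65% (996 of 27305), over genes tested 2.77% (278 of 10049), and over the higher genes 3.7% (2 of 54). The match is thus common on the list whether or not a member was called, and it is a description of letters, not of binding. The other motifs searched, which can overlap on the same bases, were GGGA, any base and TTTCC for NF-kB, TGANTCA for AP-1, TTTNGCGC for E2F, TTGNGNAA for C/EBP, TGACGTCA for CRE and a pair of common forms of the SRF element (CArG box). Among the higher genes their shares were 3.7%, 3.7%, 0%, 5.56%, 3.7% and 0%, against 0.597%, 4.42%, 2.95%, 8.68%, 3.4% and 0.109% of genes tested. Among the lower genes the shares were 5.26%, 8.77%, 3.51%, 12.3%, 1.75% and 0%.

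Of 16 genes for HLA class I and its peptide loading, only B2M, the light chain of the HLA class I molecule, was called lower in edgeR (3 at an unadjusted p under 0.05, 1 in DESeq2 and 1 in limma-voom). B2M stood at 3239, 3789 and 3484 CPM in vector and 2938, 2814 and 2508 CPM in R298P libraries (-0.35, -0.47 to -0.23). None was higher by any of these counts (0).

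Several matrix and contractile genes rose. Of 20 collagen genes tested 6 were higher and 0 lower (0 at an unadjusted p under 0.05, in DESeq2 and in limma-voom), beside 0.54% higher among all genes, with a list median of 0.20. COL4A1 and COL4A2, which lie head to head and form the main collagen of basement membranes, both rose by 0.50. COL4A1 was at 494, 585 and 568 CPM in vector and 808, 782 and 733 CPM in R298P libraries (0.35 to 0.64), and COL4A2 at 645, 607 and 652 with vector and 923, 913 and 860.3 CPM with R298P (0.38 to 0.62). COL7A1, the anchoring fibril collagen of the skin and other epithelia, had the largest collagen change at a low level, 28.7, 22.7 and 30.2 with vector and 45.5, 41.7 and 60.2 CPM with R298P (0.85, held in 4 of 6). COL1A1, the most abundant of them and the bulk of interstitial fibres, was at 8704, 8692 and 8247 with vector and 10599, 10467 and 10405 CPM with R298P (0.30, 0.20 to 0.39). COL5A1 rose by 0.39 and COL8A1 by 0.32 (held in 3 of 6). COL1A2, the partner chain of COL1A1, was not called, at 3628, 4038 and 3902 with vector and 4388, 4344 and 3969 CPM with R298P (0.13, 0.03 to 0.24), nor was COL3A1 (0.12, -0.01 to 0.24). Over fits without 1 library 4 to 8 collagens were higher, 8 without vector replicate 1 and 4 without vector replicate 2.

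Among 32 tested matrix glycoproteins, proteoglycans and elastic fibre genes 6 were higher and 0 lower, beside 0.54% and 0.555% of all genes tested. Lower members numbered 2 at an unadjusted p under 0.05 and 0 in DESeq2 and in limma-voom. FBN2, a fibrillin of elastic microfibrils, had the largest called change, from 74, 78.7 and 61.9 to 106, 123 and 106 CPM (0.64, 0.40 to 0.89). THBS1, a thrombospondin that activates latent TGF-beta, was at 1198, 1321 and 1205 CPM in vector and 1658, 1649.9 and 1465 CPM in R298P libraries (0.36). FN1, fibronectin, VCAN, a large proteoglycan, and LOXL2, a collagen crosslinking enzyme, rose by 0.32, 0.33 and 0.24, the last held in 3 of 6. CCN2, a TGF-beta and YAP target, was at 381, 502 and 428 with vector and 650.4, 618 and 491 CPM with R298P, with libraries that overlapped between the groups (0.42, held in 2 of 6). ITGA1, the integrin chain that pairs with integrin beta 1 to bind collagen, rose more than any of these, from 431, 395 and 396 to 639.9, 667 and 656 CPM (0.68, 0.55 to 0.82, edgeR adjusted p = 8.32e-09). ITGA6, a chain of laminin receptors, fell, from 91.6, 110.2 and 93.4 to 71.4, 64.4 and 57 CPM (-0.61).

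Of 30 tested genes for contraction and targets of SRF and YAP, 3 were higher and 0 lower, beside 0.54% and 0.555% of all genes. Lower members numbered 0 at an unadjusted p under 0.05, in DESeq2 and in limma-voom, and higher members 12, 7 and 7. ACTA2, the smooth muscle actin of myofibroblasts, stood at 467, 437 and 436 CPM in vector and 711, 645 and 682 CPM in R298P libraries (0.60, 0.47 to 0.74, edgeR adjusted p = 1.59e-07). TPM1, a tropomyosin, stood at 1334, 1224 and 1183 with vector and 1639, 1669.9 and 1828 CPM with R298P (0.46, 0.34 to 0.58). MYOCD, the SRF coactivator that drives smooth muscle genes, stood at 166, 195 and 185 with vector and 278, 278 and 281 CPM with R298P (0.62, 0.45 to 0.78), with R298P libraries that hardly differed from each other. In all of them the lowest R298P library exceeded the highest vector library. CNN1, calponin, was not called (0.15, -0.04 to 0.35), nor was LMOD1 (0.53, 0.17 to 0.89). Of 10 tested markers of smooth muscle cells and pericytes, RGS5 was higher and 0 were lower (0 at an unadjusted p under 0.05, in DESeq2 and in limma-voom), with 2 higher in DESeq2 and 2 in limma-voom and a median of 0.25. Their summed level was 649 to 712 CPM in vector and 794 to 840.2 CPM in R298P libraries, DES had 8 counts in vector replicate 3 and 0 in the other 5 libraries, and the part of such cells in the contractile genes was not tested. RGS5, a regulator of G protein signalling typical of pericytes, stood at 16.7, 18.2 and 12.8 CPM in vector and 50.7, 46.2 and 51.3 CPM in R298P libraries (1.63, 1.32 to 1.95, edgeR adjusted p = 8.32e-09).

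Among 31 tested genes of TGF-beta, activin and BMP signalling 4 were higher and 0 lower, beside 0.54% and 0.555% of all genes. The list median was 0.22, with 2 lower members at an unadjusted p under 0.05 and 0 in DESeq2 and in limma-voom. The ligands were INHBA, whose product forms activin A, at 1001, 1193 and 1098 CPM in vector and 1436, 1434 and 1502 CPM in R298P libraries (0.41, 0.29 to 0.53), and BMP4, at 213, 167 and 199.9 with vector and 243, 264 and 297 CPM with R298P (0.47, held in 4 of 6). The receptor was TGFBR1, the type I receptor of TGF-beta, at 45.1, 51.1 and 37.1 with vector and 62.2, 71.6 and 62 CPM with R298P (0.55, held in 4 of 6). GREM1, a secreted antagonist of BMPs, rose most, from 104, 111 and 119 to 185, 169.8 and 185 CPM (0.69, 0.54 to 0.84). A ligand and an antagonist of the BMP branch were therefore higher together.

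**Figure D5:**
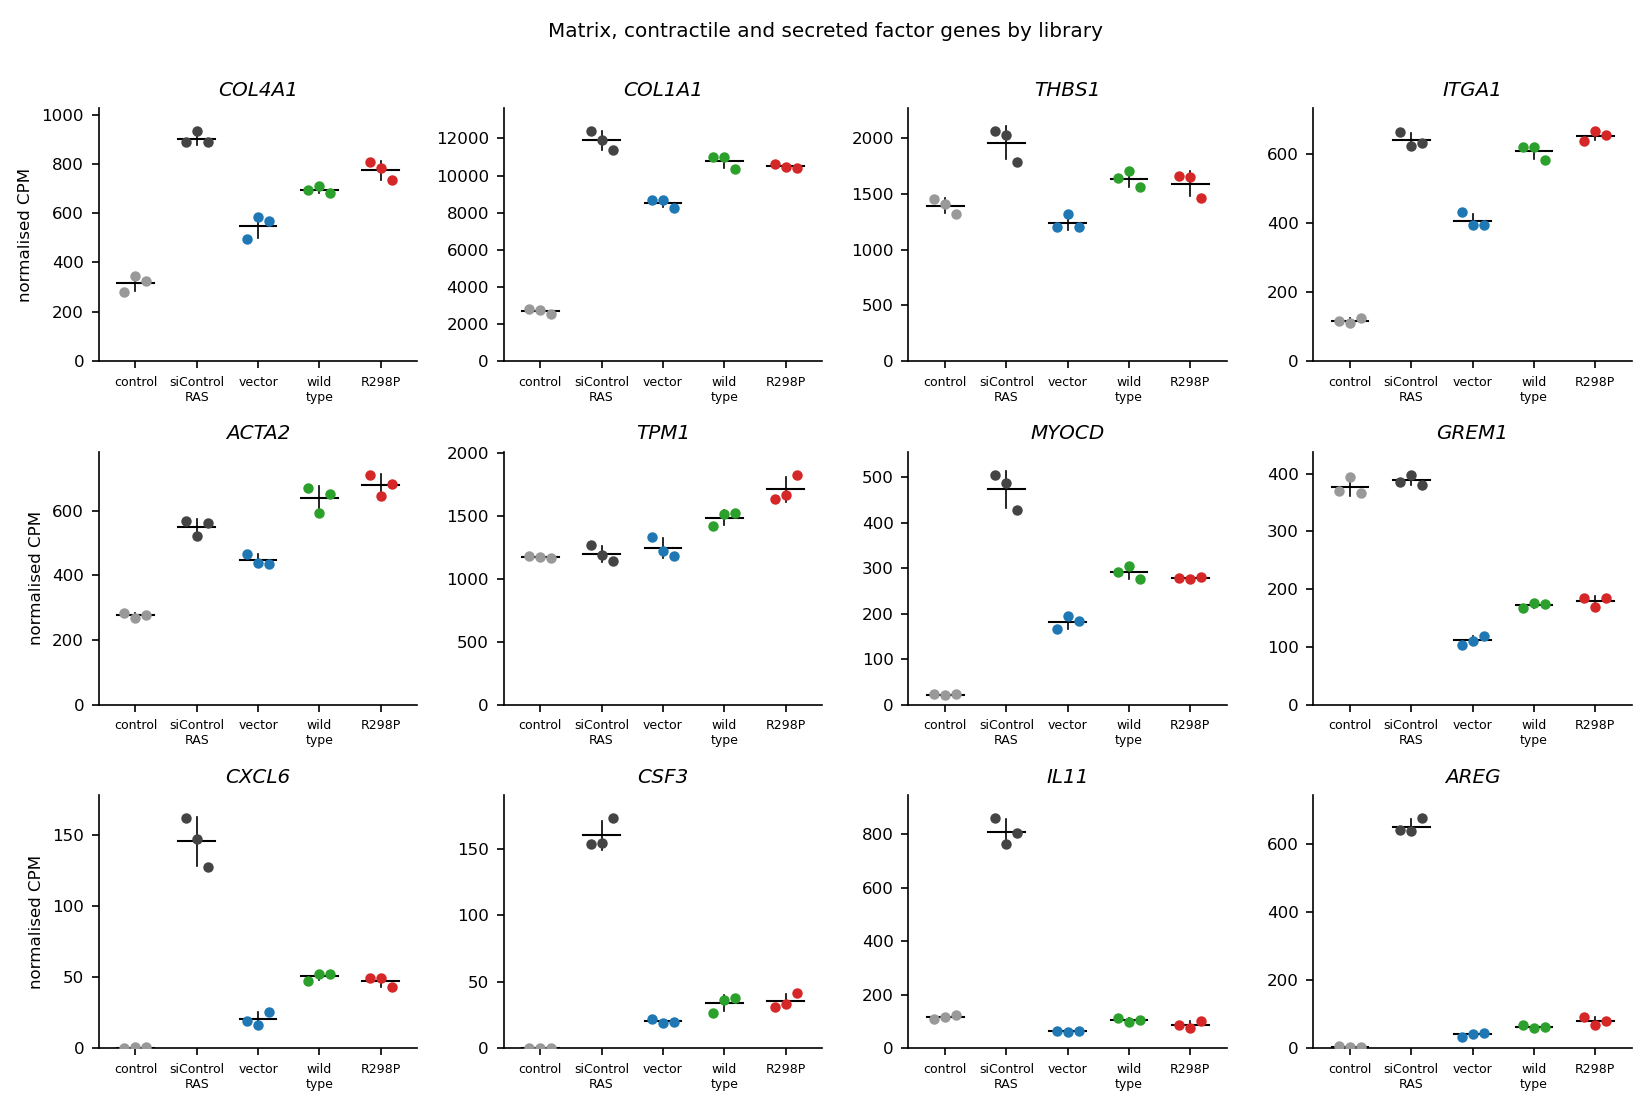
Normalised CPM by library for 12 matrix, contractile and secreted factor genes in the 5 groups (points: 3 libraries a group; lines: mean and SD; axes start at 0). R298P libraries lie above all vector libraries in each panel; CXCL6, CSF3, IL11 and AREG remain far below the siControl RAS level, whereas ITGA1, ACTA2 and TPM1 reach or pass it.

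SASP genes were partly higher. Of 23 tested cytokines and chemokines 4 were higher and 0 lower, beside 0.54% and 0.555% of all genes. No member was lower at an unadjusted p under 0.05, in DESeq2 or in limma-voom (0 each). DESeq2 and limma-voom each called 7 higher, and the list median was 0.30. CXCL6, a chemokine that draws neutrophils, was at 19.5, 16.2 and 25.6 CPM in vector and 49.6, 49.1 and 42.8 CPM in R298P libraries (1.21, 0.86 to 1.55, edgeR adjusted p = 2.67e-05). CSF3, the growth factor of neutrophils, was at 21.7, 19 and 19.9 with vector and 31.3, 33.6 and 41.4 CPM with R298P (0.81), and IL11, a cytokine of the IL6 family, at 65, 62.3 and 64 with vector and 88.4, 76.7 and 101 CPM with R298P (0.47, held in 5 of 6). IL1B, the interleukin that starts much of the SASP, was at 146, 140.1 and 186 with vector and 251, 252 and 272 CPM with R298P (0.71, 0.41 to 1.02). Vector replicate 3 was the highest of its group for IL1B, and the call was held in 1 of 6 fits without 1 library, the fit without that library.

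Other SASP cytokines did not pass the threshold. CXCL8, the main neutrophil chemokine, was at 184, 242 and 282 CPM in vector and 422, 416 and 372 CPM in R298P libraries (0.77, 0.41 to 1.13, edgeR adjusted p = 0.0551), and was called by DESeq2, by limma-voom and in a fit of the 6 libraries alone. CXCL1 was at 409, 529.8 and 569 with vector and 892, 837 and 649 CPM with R298P (0.66, 0.31 to 1.01) and was called by DESeq2 and limma-voom. The groups did not overlap for either chemokine. IL1A, a related interleukin that acts at the cell surface, was at 29.9, 36 and 40.1 with vector and 44.1, 51.4 and 40.8 CPM with R298P (0.36, 0.04 to 0.68). IL6 was at 5.28, 11.4 and 12.6 with vector and 11.9, 6.47 and 4.46 CPM with R298P (-0.36, -0.98 to 0.27) and CCL2, a monocyte chemokine, at 75.4, 157 and 136 with vector and 114, 114 and 56.2 CPM with R298P (-0.37, -1.05 to 0.31). IL6 and CCL2 overlapped between the groups, and their intervals allow changes in both directions.

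Of 26 tested growth factors and binding proteins 4 were higher and 0 lower, beside 0.54% and 0.555% of all genes. Each fit without 1 library gave 4 and 0 too. Lower members numbered 2 at an unadjusted p under 0.05 and 0 in DESeq2 and in limma-voom. AREG, a ligand of the EGF receptor, was at 34.3, 43.2 and 44.8 CPM in vector and 92.4, 68.8 and 81.1 CPM in R298P libraries (0.98, 0.66 to 1.30). IGFBP5, an abundant binding protein of insulin-like growth factors, was at 6154, 5897 and 6224 with vector and 7618, 7823 and 7813 CPM with R298P (0.35, 0.25 to 0.44), and IGFBP4 rose by 0.31. INHBA, given above, is the other. Of 21 tested proteases and inhibitors 3 were higher and 1 lower, beside 0.54% and 0.555% of all genes, with 6 higher in DESeq2 and 3 in limma-voom. MMP10, a stromelysin, was at 1.63, 0.463 and 0.985 with vector and 5.88, 2.38 and 5.47 CPM with R298P (2.18, 1.03 to 3.33, held in 2 of 6), a few counts in some libraries. MMP2, a gelatinase, was at 137, 126 and 132 with vector and 164, 167 and 173 CPM with R298P (0.35, held in 1 of 6), and CTSB, a lysosomal cysteine protease, rose by 0.22 (held in 1 of 6). Without R298P replicate 1 no member of this list was called higher (0), and without vector replicate 1 there were 3. Without R298P replicate 2 or 3 or vector replicate 2 or 3 only 1 list member was. Of MMP10, MMP2 and CTSB, only MMP10 kept its call among those fits, in the fit without R298P replicate 2. ADAMTS1, a protease of the matrix that inhibits angiogenesis, fell, from 210.3, 236 and 203 to 171, 162 and 154 CPM (-0.42, held in 4 of 6). The collagenase MMP1 was at 649, 635 and 662 with vector and 726, 753 and 795 CPM with R298P (0.22, 0.10 to 0.35) and the stromelysin MMP3 at 126, 112 and 146 with vector and 205, 225 and 274 CPM with R298P (0.87, 0.44 to 1.31). The groups did not overlap for MMP1 or MMP3, yet edgeR's adjusted p was 0.0794 and 0.0793. MMP1 was called by DESeq2, by limma-voom and under a filter of 10 CPM in 3 libraries, and MMP3 by DESeq2, in a fit of the 6 libraries alone and with a replicate block.

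The transcription factors and feedback genes upstream of the SASP showed little. Of 24 tested factors and targets of NF-kB and C/EBP none was called in edgeR (5 at an unadjusted p under 0.05, 0 in DESeq2 and 1 in limma-voom), with a median of -0.04 whose sign depended on the libraries used. Of 28 ERK feedback and early response genes only DUSP10, a phosphatase of p38 and JNK, was called in edgeR (5 at an unadjusted p under 0.05, 1 in DESeq2 and 1 in limma-voom). DUSP10 was at 19.5, 27.6 and 25.1 CPM in vector and 16.1, 13.8 and 7.5 CPM in R298P libraries (-0.94, held in 2 of 6).

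Genes of division and of the senescence arrest mostly stayed below the threshold. Of 40 tested mitosis genes 1 was lower and 0 higher, beside 0.555% and 0.54% of all genes. The median was -0.26, with 33 members below 0, beside 6650 of all 13516 genes. At an unadjusted p under 0.05, 8 were lower and 1 higher, beside 9.03% of all genes either way. DESeq2 called 1 lower and 0 higher, and limma-voom 0 either way. Of the 40 members 25 lay under 10 CPM in both groups, where only large changes can be seen. The lower gene was PRC1, which bundles microtubules of the spindle midzone, at 26.6, 21.8 and 24.8 CPM in vector and 17, 16.2 and 13.6 CPM in R298P libraries (-0.63, held in 1 of 6). MKI67, the proliferation marker Ki-67, was at 38.4, 44.9 and 39.6 with vector and 24.3, 29.1 and 35.3 CPM with R298P (-0.48, -0.79 to -0.17, edgeR adjusted p = 0.154), with groups that did not overlap. CCNA2, cyclin A, was at 3.66, 6.02 and 5.25 with vector and 2.23, 5.45 and 3.65 CPM with R298P (-0.42, -1.15 to 0.32), a level at which only large changes can be seen. Of 39 tested genes of DNA replication none was called in edgeR, DESeq2 or limma-voom (0 each), with 4 lower at an unadjusted p under 0.05.

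Of 29 CDK inhibitors and p53 targets none was called in edgeR (6 lower at an unadjusted p under 0.05, 1 lower in DESeq2 and 1 in limma-voom). The list median was -0.108, with 23 members below 0, beside 6650 of all 13516 genes. The summed level was 5529 to 5629 CPM in vector and 5152 to 5170.5 CPM in R298P libraries. CDKN1A, which codes for p21, was at 1441, 1294 and 1404 CPM in vector and 1369.9, 1362 and 1454 CPM in R298P libraries, and its interval was narrow (0.02, -0.10 to 0.13). CDKN2A, which codes for p16 and ARF, was at 133, 179 and 180.4 with vector and 153, 140.0 and 119.6 CPM with R298P (-0.25, -0.48 to -0.03), and CDKN2B, which codes for p15, at 27, 41.5 and 30.04 with vector and 40.4, 34.9 and 31.6 CPM with R298P (0.11, -0.26 to 0.49). LMNB1, the lamin that is lost in senescence, was at 10.2, 9.72 and 8.37 with vector and 6.04, 8.01 and 7.91 CPM with R298P (-0.37, -0.82 to 0.09). Of the 28 tested genes for chromatin and the nuclear envelope, HMGA1, a protein of senescence-associated heterochromatin, was lower, at 955, 852 and 1002 with vector and 757, 817 and 769.8 CPM with R298P (-0.26, held in 2 of 6), and DESeq2 and limma-voom each called 2 lower.

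Several lists for metabolism and stress held 1 called gene or none. SQSTM1, the autophagy receptor p62, fell among 32 lysosome and autophagy genes, from 682, 601 and 636 to 427, 441 and 493 CPM (-0.50, -0.63 to -0.36). SCD, which desaturates fatty acids, fell among 33 genes for cholesterol and lipid synthesis, from 79.9, 91.2 and 91.4 to 60.7, 51.8 and 53.7 CPM (-0.66). HSPH1, a co-chaperone of HSP70, fell among 20 heat shock genes by 0.34 (held in 5 of 6). CHAC1, a glutathione-degrading enzyme induced by ATF4, rose among 39 genes of the unfolded protein and ATF4 response, from 166, 138 and 143 to 213, 204 and 218 CPM (0.51, 0.31 to 0.70). None was called in edgeR among 27 antioxidant genes (5 at an unadjusted p under 0.05, 1 in DESeq2 and 1 in limma-voom). Likewise 0 were called by edgeR, DESeq2 or limma-voom among 12 metallothionein and zinc genes, 38 of glycolysis and hypoxia, 45 ribosomal proteins, 43 of the respiratory chain and 16 histone genes, with 1, 7, 7, 3 and 1 at an unadjusted p under 0.05.

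SFRP1 (ENSG00000104332), a secreted antagonist of WNT ligands, was the only called gene of 31 tested in WNT signalling (3 at an unadjusted p under 0.05, 1 in DESeq2 and 1 in limma-voom) and one of the most abundant genes that fell. It stood at 1635, 1465 and 1429 CPM in vector and 942, 915 and 896 CPM in R298P libraries (-0.72, -0.83 to -0.60, edgeR adjusted p = 7.16e-11). Of 38 tested guidance and adhesion genes ITGA1 was higher, and ITGA6 and the guidance cue SLIT2 were lower (7 higher and 5 lower at an unadjusted p under 0.05). SLIT2 was at 15, 19.6 and 10.01 with vector and 5.72, 7.33 and 7.1 CPM with R298P (-1.15, held in 1 of 6). ROBO2, a receptor of SLIT proteins that is not on the list, was at 19.7, 30.4 and 21.8 with vector and 43.1, 37 and 47.2 CPM with R298P (0.81, held in 3 of 6).

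TNFRSF10D (ENSG00000173530), a decoy receptor that binds the death ligand TRAIL without passing on its signal, had the smallest adjusted p among the higher genes after METTL14. It stood at 138, 148 and 134 CPM in vector and 268, 253 and 251 CPM in R298P libraries (0.88, 0.72 to 1.03, edgeR adjusted p = 1.02e-09). SiControl RAS libraries, at 149, 147 and 143 CPM, overlapped the vector group, and control libraries, at 263, 272 and 258 CPM, overlapped the R298P group. CST1, a secreted cystatin whose counts may be shared with near-identical family members, was at 20.7, 19 and 21.5 with vector and 46.1, 49.4 and 42 CPM with R298P (1.17). FOXQ1, a forkhead transcription factor, was at 13.6, 22.2 and 22 with vector and 45.3, 35.9 and 38.7 CPM with R298P (1.04). PARP6, a mono-ADP-ribosyl transferase, was at 8.33, 12.5 and 13.8 with vector and 21.3, 26.1 and 26.2 CPM with R298P (1.07, held in 3 of 6), and CRISPLD2, a secreted glycoprotein, at 16.1, 26.5 and 20.2 with vector and 37.8, 45.1 and 31 CPM with R298P (0.85, held in 2 of 6). FAM118A, at 13.6, 17.4 and 19.7 with vector and 29.9, 29.1 and 31.6 CPM with R298P (0.83), was held in 0 of 6. PLSCR1, a scramblase that interferon induces, completes the larger decreases, at 37, 29.6 and 25.9 with vector and 15.6, 14.5 and 17.2 CPM with R298P (-0.97).

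R298P against wild-type METTL14 was the direct test of the forms, and 3 genes were called (0.0222%), 1 higher (0.0074%) and 2 lower (0.0148%). At an unadjusted p under 0.05 there were 665 (4.92%), DESeq2 called 12 and limma-voom 5. The 3 that edgeR called were METTL14 and WTAP, given above, and RCAN1, an inhibitor of calcineurin. RCAN1 stood at 798, 738 and 699 CPM in vector, 713, 738 and 750.1 CPM in wild-type and 554, 594 and 573 CPM in R298P libraries, and the R298P libraries lay below all vector and wild-type libraries. They did not lie below the other groups. In counts before scaling, siControl RAS libraries had 2754 to 4194, R298P libraries 2827 to 3488 and control libraries 1252 to 1266. R298P minus wild type was -0.35 (-0.48 to -0.23, edgeR adjusted p = 0.0225), and the call was lost when any 1 library of these groups was left out. Over the 72 named genes the interval of R298P minus wild type included 0 for 51 and excluded 0 for 21, of which 19 did not pass the threshold after adjustment in edgeR. Examples picked after their values were seen, with intervals that included 0, are IFI6 at 0.09 (-0.04 to 0.23), COL1A1 at -0.04 (-0.13 to 0.06) and ITGA1 at 0.10 (-0.03 to 0.23). Among the interferon-stimulated genes, MX1 at 0.84 (0.14 to 1.54) and XAF1 at 0.42 (0.02 to 0.82) were higher in value with R298P and MX2 at -2.34 (-4.03 to -0.65) was lower in value, with intervals that excluded 0 and none called. The intervals of SFRP1, at -0.16 (-0.27 to -0.04), and AREG, at 0.34 (0.03 to 0.65), excluded 0 too, and neither was called. RGS5 differed by 0.68 (0.38 to 0.97) but did not pass the threshold (edgeR adjusted p = 0.108), with wild-type libraries at 29.7, 34.1 and 28.4 CPM, all below those of R298P. TPM1 differed by 0.20 (0.08 to 0.32) and COL4A2 by 0.18 (0.06 to 0.30), neither past the threshold, and CHAC1 by 0.42 (0.22 to 0.61, edgeR adjusted p = 0.179).

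The level that R298P cells reached was also set against siControl RAS cells, where 1813 genes were called (13.4%), 848 higher (6.27%) and 965 lower (7.14%). Vector cells against siControl RAS cells gave 2100 (15.5%), 1010 higher (7.47%) and 1090 lower (8.06%). These comparisons share libraries with the one above, so their values are given side by side and no overlap is drawn. COL4A2 was -0.53 in vector and -0.03 in R298P cells relative to siControl RAS, COL5A1 -0.40 and -0.01, ITGA1 -0.65 and 0.03, and CTSB -0.27 and -0.05, the second value not called for any of these 4 (edgeR adjusted p from 0.644 to 0.957). Other matrix genes stayed lower. COL1A1 was -0.48 and -0.18 and COL4A1 -0.72 and -0.22, the second value called for both (edgeR adjusted p = 0.00633 and 0.0311). VCAN had 8659 counts in R298P and 17571 in siControl RAS libraries, summed before scaling for depth. The SASP genes CXCL6, CSF3, IL11, AREG and IL1B were still called lower than in siControl RAS. CXCL6 was -2.83 and -1.62, CSF3 -2.99 and -2.18, IL11 -3.67 and -3.20, AREG -3.99 and -3.01, and IL1B -2.14 and -1.43. Among interferon-stimulated genes IFI6 was -1.45 and -2.83, IFI27 -2.81 and -4.67, and XAF1 0.08 and -1.50. Members differed in this order, as examples in counts summed before scaling for depth show. Vector libraries had more than siControl RAS libraries for GBP1 (3893 and 2572), PARP9 (897 and 693) and IFIT3 (540 and 414). Vector libraries had fewer for IFITM3 (25656 and 38218) and MX1 (599 and 805). With R298P, GBP1 had 2911, and SAMD9 had 890 beside 1754 in control libraries. The summed interferon list was 7851 to 8020 CPM in siControl RAS, 2960 to 3143 CPM in wild-type and 1523 to 1685 CPM in control libraries. In this sum R298P libraries lay between control and vector. SFRP1 was 1.00 and 0.28, and ACTA2 and TPM1 passed the siControl RAS level with R298P (0.30 and 0.51).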

How the data were processed

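QuantSeq 3′ RNA-seq counts of 15 IMR90 libraries were used, as estimated (expected) counts per gene in the table the authors deposited. Per the labels' protocols RNA was extracted with RNeasy columns and DNase treated; Bowtie2, RSEM 1.2.12 and hg19 are named, with no role, per the submitters' processing notes. The annotation used and the strand of counting are not stated, so antisense and overlapping genes cannot be told apart, and near-identical genes may share counts.

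All values were whole and were used without change. Of 57736 gene IDs, 52301 were paired with a symbol (90.6%), which hold 99.2% of counts; 342 of these symbols came from GENCODE 29. Genes were kept with filterByExpr, leaving 13516 with 99.8% of counts. edgeR 4.0.16 (R 4.3.3) fitted 1 coefficient for each of 5 groups over 15 libraries (TMM, quasi-likelihood, robust, two-sided, Benjamini-Hochberg over all genes tested). The common biological coefficient of variation was 16.7% over 10 residual degrees of freedom. Intervals are 95% intervals from the same test. The fit was tested on simulated counts with changes of at least a fold of 2 and the same spread for all genes. Smaller changes, which most called genes had, were not simulated.

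Named genes are METTL14 and METTL3, the 12 largest changes in each direction among called genes (symbol, at least 10 CPM in either group, no overlap), up to 3 called members of each list, and 14 senescence genes whether called or not; others named were picked after their values were seen, and 2 called genes are not reported here by name. The comparison, the lists and the rule were chosen with earlier results of these data known. Replicate numbers were checked for pairing: same-numbered libraries of the groups had deviations correlated at -0.0541 to 0.0395 over 3 pairs, so the groups were treated as unpaired. Alternatives were DESeq2 1.42.0, limma-voom (limma 3.58.1), other size factors, other filters, the 6 libraries alone, a replicate block and each library left out. Promoters are from RefSeq GRCh38.p14; no coordinate was converted between builds.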

Additional observations from a re-analysis of the deposited data

Results flagged for a closer look

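WTAP differed between the forms of METTL14 by edgeR's test of the difference itself: the R298P effect relative to vector was lower than the wild-type effect by 0.55 on the log2 scale (R298P minus wild type -0.55), with every R298P library below every wild-type library. RCAN1 differed in the same test, at -0.35, also without overlap between the libraries. METTL14, the gene that was supplied, differed by 0.79, with more mRNA in R298P than in wild-type libraries. WTAP was called in each fit that left out 1 library of these groups, whereas RCAN1 and METTL14 were called in none of them.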

How the results depend on the processing

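All 148 genes called for R298P against vector kept their direction under each alternative that could fit them (144 under a filter of 10 CPM in 3 libraries), and METTL14 ranged from 7.09 to 7.72. The number of higher genes was 73; DESeq2 gave 111, and leaving out 1 library gave 47 to 71. The number of lower genes was 75, and 43 to 69 when 1 library was left out. The replicate block, fitted although the numbers do not pair the libraries (1 of 6 correlated best with its own number), gave 89 higher and 93 lower over 15 libraries, and 29 higher and 42 lower over the 6 libraries alone, an alternative added after the data were seen. R298P against wild type gave 3 calls; it gave 14 with no filter on low counts, 12 with DESeq2, 5 with limma-voom, 5 with only the libraries compared, and 1 to 2 when 1 library was left out. METTL14 lost its call there under the replicate block (adjusted p = 0.0875). Of the alternatives run for single named genes, 974 kept direction and side of the threshold, 126 lost the call, 18 gained one and 3 reversed. The reversals were in CDKN1A, which ranged from -0.028 (without vector replicate 2; -0.015 without R298P replicate 3) to 0.048 when 1 library was left out, and in CDKN2B, which ranged from -0.0043 (without vector replicate 1) to 0.32, called in none of these fits. Upper-quartile factors turned the balance of calls against siControl RAS, from 848 higher and 965 lower to 989 and 851 for R298P, and from 1010 and 1090 to 1168 and 970 for vector. The cause was not tested. Depth limits low genes: under 10 CPM no called change was smaller than 1.63.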

Other observations

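Beyond the lists, 82 called genes remained, and those named here were picked after their values were seen. Several lower genes are known to respond to interferon: TRIM14 fell by 0.69, SAMHD1 by 0.68, SP110 by 0.68, SP100 by 0.62, LY6E by 0.60, RNF213 by 0.45 and ZNFX1 by 0.42. LY6E was held in 1 of 6 fits without 1 library, ZNFX1 in 4 and SP110 in 5, and the others in all 6. NAV2, which guides growing neurites, fell by 0.88.

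Higher genes outside the lists included ADAM19, a metalloprotease, at 0.58, ITGB5, an integrin chain that binds vitronectin, at 0.42, LAMB1, a laminin chain, at 0.32, and TGM2, a transglutaminase that crosslinks proteins, at 0.46. The secreted factors GDNF and ANGPT1 stood at 0.66 and 0.39, and the receptor IL4R at 0.47. LAMB1, TGM2 and ANGPT1 were held in 4 of 6 fits without 1 library, IL4R in 3 and GDNF in 5.

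The largest increase after METTL14 was that of RNU6ATAC, a small RNA of the minor spliceosome, at 3.63. It was at 0, 1.85 and 0.328 CPM in vector and at 6.84, 11.1 and 11.2 CPM in R298P libraries, and was held in 1 of 6 fits. In counts before scaling, R298P libraries had 43, 65 and 55 and wild-type libraries 9, 18 and 4. More genes were detected in R298P libraries (16844, 16469 and 16460) than in vector libraries (15593, 16389 and 16217). The bearing of that difference on genes near 0 counts was not tested. STAG3L1, a copy of a larger gene whose counts may be shared, rose by 1.63, held in 1 of 6.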
